A study of Rattus norvegicus with 10 samples.

Results

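Interferon response genes were described in whole liver of 10 male Wistar rats in which cirrhosis had been induced by inhalation of CCl4. In the treated group, 5 cirrhotic rats received CVX-060, an inhibitor of angiopoietin-2 given as an activator of Tie2 signalling, at 10 mg/kg in saline through the tail vein once weekly for 4 weeks. In the other group, 5 cirrhotic rats were injected with vehicle weekly. Both groups therefore carried CCl4 cirrhosis, and no liver without CCl4 was analysed here. The age of the rats was not given in the sources used here. An Affymetrix rat expression array was run for each rat from 150 ng of total RNA, and the values are log2 signals normalized between arrays.

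The genes were a list of 40 genes known to be induced by interferons, and each was represented by a single probe set, the one that varied most over the 10 arrays among those assigned to that gene symbol alone. By this rule 38 of the 40 genes were measured, of 14217 genes in all, while Gbp5 and Xaf1 had no such probe set. The measured genes comprised 26 antiviral genes and 12 gamma-type genes, and 5 of the gamma-type genes act in antigen presentation. Type I and type III interferons, released by cells that sense viral nucleic acid, act through the kinases Jak1 and Tyk2 on a complex that holds Stat2 and Irf9 and binds the interferon-stimulated response element (ISRE) of the antiviral genes. Interferon-gamma, released by T cells and natural killer cells, signals through Jak1 and Jak2 to gamma-activated sites (GAS) in genes such as Irf1. In the liver, both arms operate in hepatocytes and in resident and infiltrating immune cells, and many genes respond to both.

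The listed genes were compared first by their promoters, because these 2 elements are the known targets of the 2 arms. RefSeq promoters on the GRCr8 assembly were matched for 31 of the 38 genes. Each ran from 250 bases before to 50 bases after an annotated start of the gene. The 7 without a match were Isg15, Mx2, Ifit1, Ifit2, Rig1, Dhx58 and Usp18. The ISRE core was searched as GAAA, any 2 bases and GAAA, or on the other strand TTTC, any 2 bases and TTTC. These letters stood in 12 of 19 antiviral promoters (63.2%) and in 7 of 12 gamma-type promoters (58.3%), while 3.92% of all 33469 rat promoters of this length held them. The letters of the GAS, TTCNNNGAA, which read the same on both strands, stood in 5 of 19 antiviral promoters (26.3%) and in 6 of 12 gamma-type promoters (50%), and in 8.87% of all promoters. The matches of both elements overlapped in 1 gene. The windows below, with up to 20 bases on either side of the match, are shown for genes whose signals are described afterwards, with the matched letters in capitals, in the direction of the gene. The first line gives the GAS of Irf1 and the others give the ISRE core.
Irf1 (chr10:38417773-38417821, + strand): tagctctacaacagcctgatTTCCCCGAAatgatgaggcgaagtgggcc
Cxcl10 (chr14:15988816-15988852, + strand): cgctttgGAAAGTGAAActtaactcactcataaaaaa
Gbp2 (chr2:234005676-234005725, + strand): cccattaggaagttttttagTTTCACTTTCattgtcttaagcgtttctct
Irf7 (chr1:205800063-205800112, - strand): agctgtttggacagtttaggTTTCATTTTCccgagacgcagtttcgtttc
Oas1a (chr12:41330405-41330460, + strand): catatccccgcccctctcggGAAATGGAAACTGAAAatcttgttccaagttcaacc
Ifi44 (chr2:243303841-243303886, - strand): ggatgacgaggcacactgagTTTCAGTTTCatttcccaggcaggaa
Ifit3 (chr1:241527262-241527311, + strand): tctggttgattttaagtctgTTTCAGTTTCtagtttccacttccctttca
Ifih1 (chr3:67683998-67684047, - strand): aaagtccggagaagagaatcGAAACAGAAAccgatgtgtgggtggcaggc
Tap2 (chr20:4652308-4652357, - strand): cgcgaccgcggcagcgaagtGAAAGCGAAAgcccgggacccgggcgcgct
In Oas1a 2 matches overlapped, so that its capitals are longer. Counted from the start used for the promoter, the first capital lay at -26 in Ifi44 and at -41 in both Oas1a and Tap2. It lay at -142 in Irf1 and at -243 in Cxcl10. In Irf7, Oas1a and Ifi44 the start used lies inside the annotated gene. A match of letters is a description and was not tested as a binding site.

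The arrays were alike in their overall distribution, with medians between 5.52 and 5.57 and correlations between arrays of 0.967 to 0.992 across genes. CVX-060 rat 5 and vehicle rat 2 were set off from the rest on the first principal component, which held 35.4% of the variance, with scores of -35.47 and -34.49, while the other 8 rats lay between -9.74 and 26.22. The study kept only some arrays of each group after quality control and did not name them, so that all 10 arrays were used here. A background level was set on each array from 19 probe sets for chemosensory receptors (olfactory, vomeronasal and trace amine), taking their 95th percentile, and it ranged from 5.36 to 6.08. By this measure 28 of the 38 interferon genes were above background in all rats, 9 in some rats and 1, Oas1b, in none. The hepatocyte marker list had 4 of its 5 genes measured, all above background in every rat. As these are bulk livers, fewer cells of a type and less RNA per cell cannot be told apart.

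No interferon gene passed the comparison of CVX-060 with vehicle. Using limma across all genes with Benjamini-Hochberg adjustment, 0 of the 38 genes had an adjusted p under 0.05, beside 0 of 14217 genes overall (0%), and the lowest adjusted p among the 38 was 1. At an unadjusted p under 0.05, 0 of the 38 genes were called, against a background of 2.44% (347 genes, with 1.27% higher and 1.17% lower in CVX-060 rats). The CVX-060 and vehicle rats overlapped in all 38 genes, while 0.485% of all genes had groups that did not overlap. The mean was higher in CVX-060 rats for 13 of the 38 genes and lower for 25, while 52.6% of all genes had a higher mean in CVX-060 rats. The median log2 difference, CVX-060 minus vehicle, was -0.03 for the 26 antiviral genes (8 higher, 18 lower, from -0.22 to 0.33) and -0.06 for the 12 gamma-type genes (5 higher, 7 lower, from -0.75 to 0.32), beside 0.01 for all genes. Without vehicle rat 2 and CVX-060 rat 5 the medians were -0.07 for antiviral and -0.04 for gamma-type genes, and again 0 genes were called. Within the gamma-type genes, 4 of the 5 antigen presentation genes had a higher mean in CVX-060 rats (median 0.16) and 6 of the other 7 a lower one (median -0.17), none of them with an unadjusted p under 0.05.

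**Figure D1:**
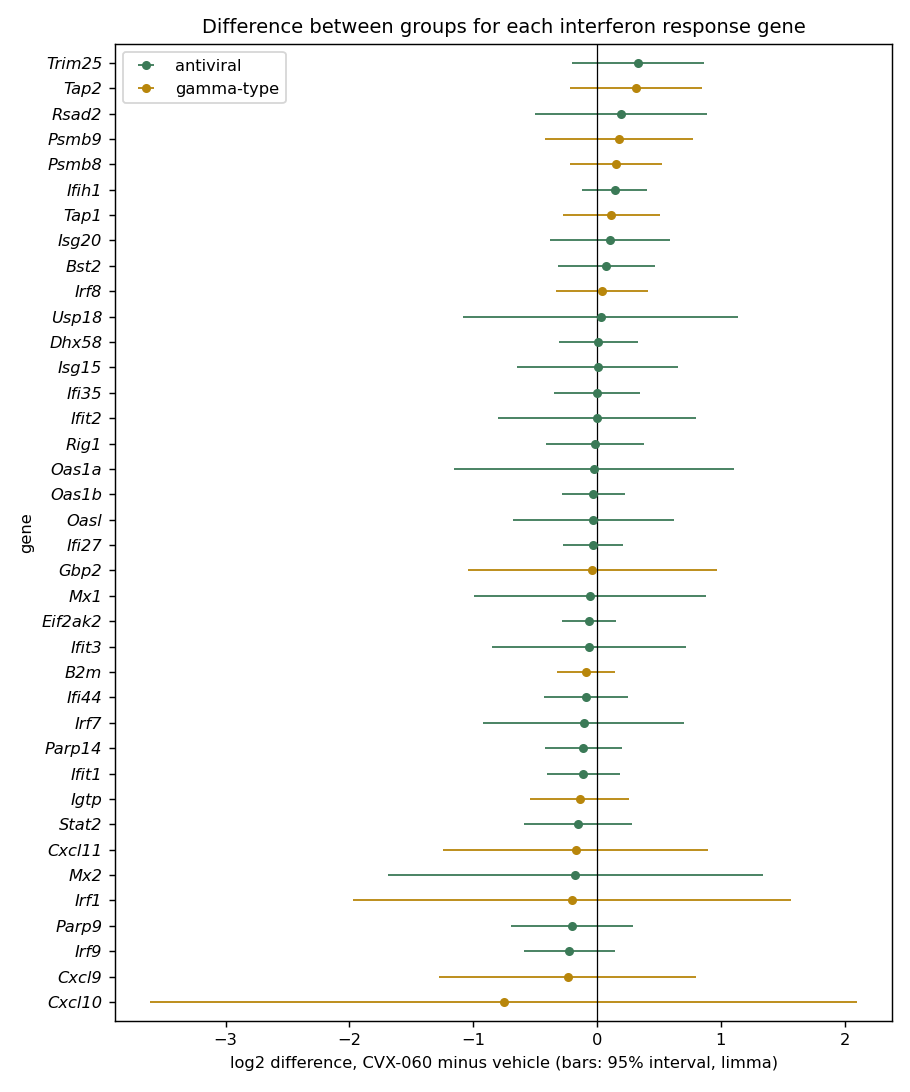
Log2 difference in signal, CVX-060 minus vehicle, for each of the 38 interferon response genes (n = 5 rats per group). Points are limma estimates and bars 95% intervals, coloured by antiviral or gamma-type class. All 38 intervals include 0, and the widest is that of Cxcl10, from -3.61 to 2.10.

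The signals of these genes differed more between single rats than between the groups. Of the 38 genes, 18 had an SD over the 10 rats above the 90th percentile of all genes and 4 below the 50th percentile. Their median SD was 0.38, beside 0.18 for all genes. All genes here include those with signal under background, and no set matched for signal was compared. A score was made for each rat as the mean over genes of the log2 signal minus that gene's mean over the 10 rats, so that 0 is the average rat. The antiviral score was -0.13, 0.25, -0.08, -0.02 and -0.08 in CVX-060 rats 1 to 5, against -0.11, -0.09, -0.23, -0.03 and 0.52 in vehicle rats 1 to 5. Vehicle rat 5 was highest and CVX-060 rat 2 second, so that each group held 1 high rat and 4 rats below 0. The score of the 7 gamma-type genes outside antigen presentation was -0.21, 1.46, -0.13, -0.98 and -0.67 in CVX-060 rats 1 to 5, against 1.33, 0.07, 0.24, -0.34 and -0.77 in vehicle rats 1 to 5. Here CVX-060 rat 2 and vehicle rat 1 were high, while vehicle rat 5, the highest for antiviral genes, was among the lowest 3. The score of the 5 antigen presentation genes was -0.06, -0.07, 0.03, -0.18 and 0.62 in CVX-060 rats 1 to 5, against -0.53, 0.04, 0.02, 0.03 and 0.10 in vehicle rats 1 to 5. CVX-060 rat 5 was high and vehicle rat 1 low, and the groups overlapped in all 3 scores.

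**Figure D2:**
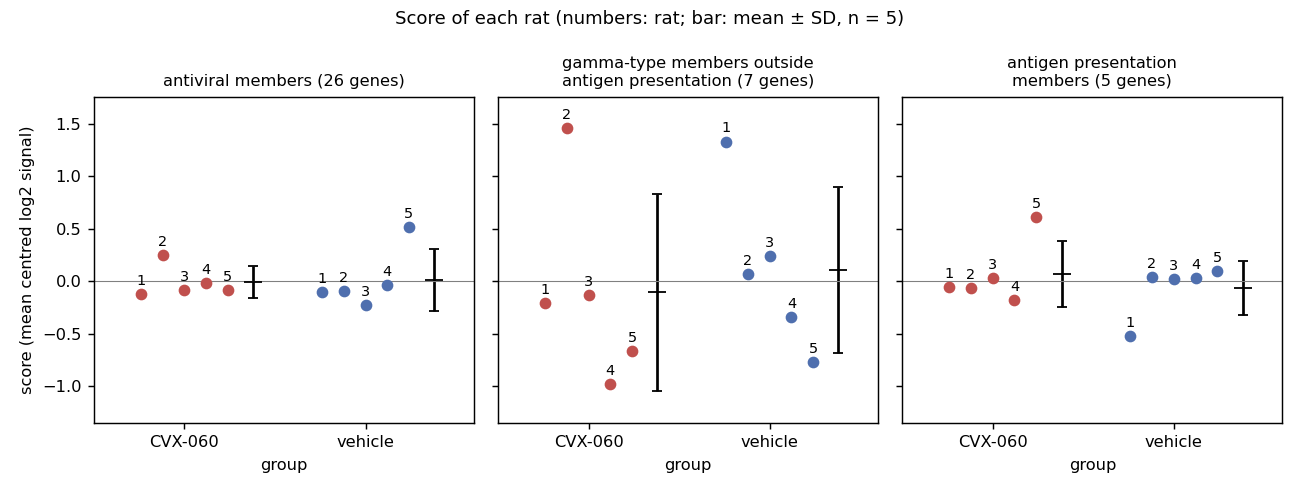
Score of each rat (mean log2 signal centred on each gene's mean over the 10 rats) for 26 antiviral genes, 7 gamma-type genes outside antigen presentation and 5 antigen presentation genes, in CVX-060 and vehicle rats. Numbers are rats and bars mean ± SD (n = 5). The high rats are vehicle rat 5 (0.52) for antiviral genes, CVX-060 rat 2 (1.46) and vehicle rat 1 (1.33) for gamma-type genes, and CVX-060 rat 5 (0.62) for antigen presentation.

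CVX-060 rat 2 had the highest signal of all 10 rats in 5 of the 26 antiviral genes and was among the highest 2 in 14. Vehicle rat 5 was highest in 14 antiviral genes and among the highest 2 in 17. Among the 7 gamma-type genes outside antigen presentation, CVX-060 rat 2 was highest in 4 and vehicle rat 1 was among the highest 2 in 5. CVX-060 rat 5 was highest in 4 of the 5 antigen presentation genes, and vehicle rat 1 was lowest in 3. The order of the high rats depended on the scoring only in part. Vehicle rat 5 and then CVX-060 rat 2 led the antiviral score, and CVX-060 rat 2 and then vehicle rat 1 the gamma-type score outside antigen presentation, in each of the 8 ways of scoring. Over all 38 genes together, CVX-060 rat 2 was highest (0.43) and vehicle rat 5 second (0.23), but with the median over genes CVX-060 rat 2 (0.15) came second to vehicle rat 5 (0.28), and with each gene scaled to its SD over the rats CVX-060 rat 2 (0.64) was again second to vehicle rat 5 (0.82).

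**Figure D3:**
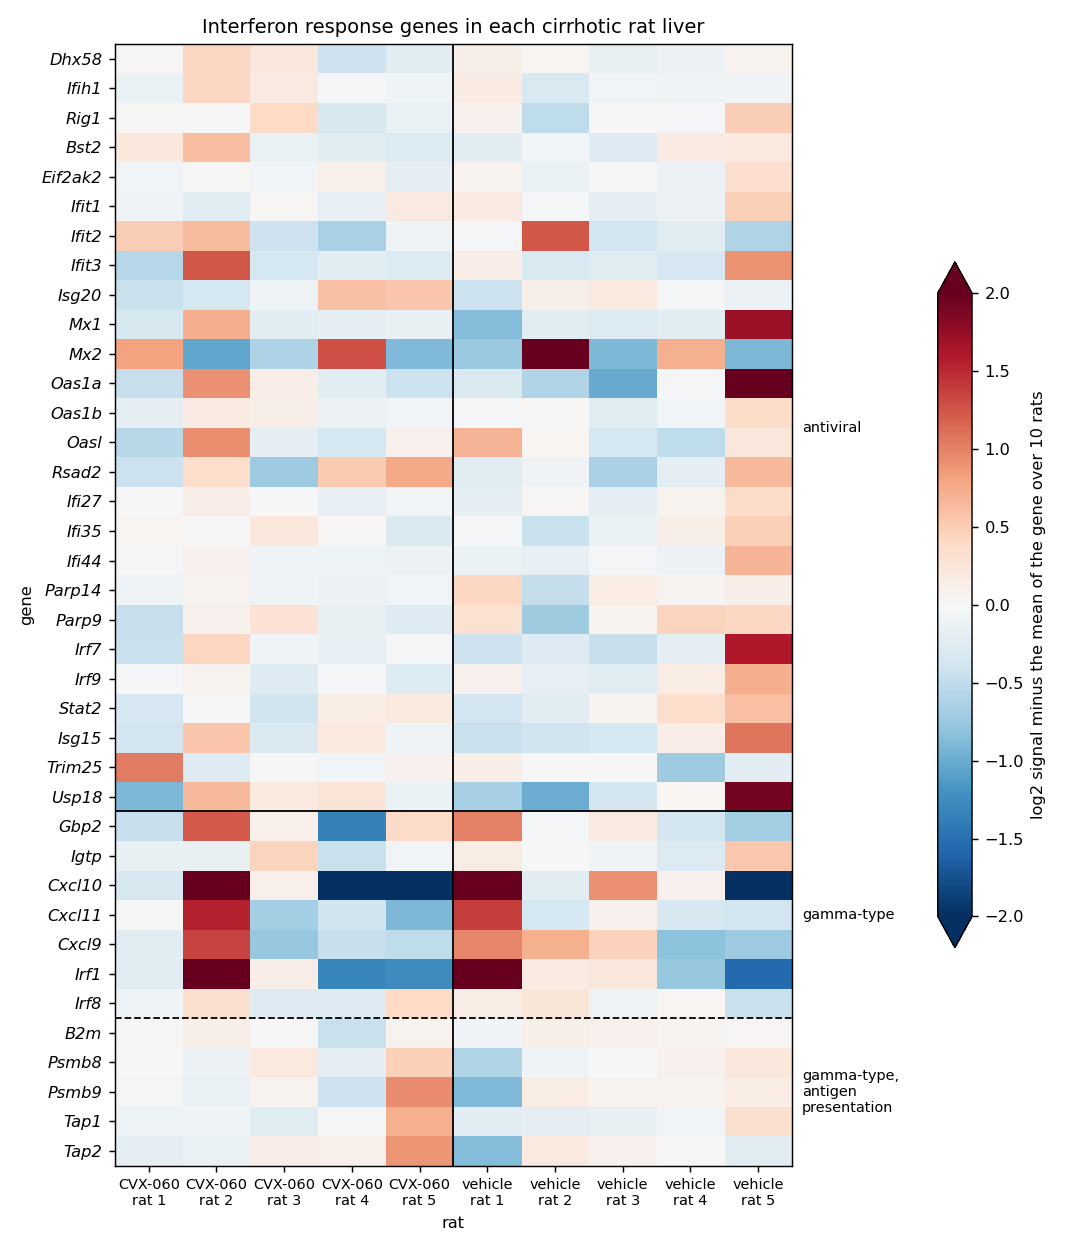
Log2 signal of the 38 interferon response genes in each liver, minus the gene's mean over the 10 rats. Rows are genes grouped by class, columns are CVX-060 rats 1 to 5 and vehicle rats 1 to 5, and the colour scale ends at -2 and 2, with larger deviations shown in the end colours. The red cells of vehicle rat 5 lie mostly among the antiviral genes. CVX-060 rat 2 and vehicle rat 1 are red for Gbp2, Irf1 and the chemokines. CVX-060 rat 2 is also red for antiviral genes such as Ifit3 and Oas1a, and was among the highest 2 rats in 14 of the 26. CVX-060 rat 5 is red for Psmb8, Psmb9, Tap1 and Tap2.

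Among the transcription factors of the antiviral arm, Irf7, which amplifies the production of type I interferon, varied most. Its log2 signal was 7.69, 8.58, 8.07, 7.98 and 8.12 in CVX-060 rats 1 to 5, against 7.72, 7.88, 7.68, 7.96 and 9.74 in vehicle rats 1 to 5. Vehicle rat 5 lay above every other rat and CVX-060 rat 2 came second, while the remaining 8 rats lay within 7.68 to 8.12. The difference between groups was -0.11 (SE 0.37, 95% interval -0.92 to 0.70), with an exact permutation p of 0.94 (two-sided, n = 5 per group). Irf9, the DNA-binding partner of Stat2, had log2 signals of 7.52, 7.63, 7.30, 7.52 and 7.28 in CVX-060 rats 1 to 5, against 7.65, 7.40, 7.33, 7.71 and 8.28 in vehicle rats 1 to 5. Vehicle rat 5 was highest again, and the difference of -0.22 came with an unadjusted limma p of 0.207, one of the 3 smallest p-values among genes lower in CVX-060 rats. Stat2 lay between 8.87 and 9.86 with a difference of -0.15, also highest in vehicle rat 5.

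Of the 3 sensors of viral RNA in the cytoplasm, by the probe sets used, Ifih1 and Dhx58 were highest in CVX-060 rat 2 and Rig1 in vehicle rat 5. Ifih1, a sensor of long double-stranded RNA, had log2 signals of 5.81, 6.36, 6.12, 5.92 and 5.86 in CVX-060 rats 1 to 5, against 6.10, 5.64, 5.89, 5.86 and 5.87 in vehicle rats 1 to 5. It was above background in 6 rats, and CVX-060 rat 2 was highest, with a difference of 0.14 (unadjusted limma p of 0.26). Rig1, listed under the names Ddx58 and Rigi and sensing RNA with uncapped ends, ranged from 8.43 to 9.42 and was highest in vehicle rat 5. Dhx58, a regulator of both sensors, ranged from 5.74 to 6.56 and was highest in CVX-060 rat 2. The 3 probe sets of Dhx58 did not share the sign of the difference, at 0.01 in the one used, which was above background in 8 rats. Another of them was highest in vehicle rat 5 (6.445), with CVX-060 rat 2 second (6.417).

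Of the 12 effector genes, 5 were highest in vehicle rat 5 (Mx1, Oas1a, Oas1b, Ifit1 and Eif2ak2), 3 in CVX-060 rat 2 (Oasl, Ifit3 and Bst2) and 2 in vehicle rat 2 (Mx2 and Ifit2), while Rsad2 was highest in CVX-060 rat 5 and Isg20 in CVX-060 rat 4. Oas1a, a synthetase of the oligoadenylates that activate RNase L, had log2 signals of 6.75, 8.11, 7.33, 6.99 and 6.77 in CVX-060 rats 1 to 5, against 6.91, 6.60, 6.20, 7.16 and 9.20 in vehicle rats 1 to 5. The highest and lowest rat were both vehicle rats and differed 8.04-fold, which left a difference between groups of -0.02 (SE 0.51, 95% interval -1.15 to 1.11). Mx1, a dynamin-like GTPase that blocks virus replication, had log2 signals of 5.14, 6.18, 5.25, 5.29 and 5.32 in CVX-060 rats 1 to 5, against 4.59, 5.24, 5.18, 5.25 and 7.19 in vehicle rats 1 to 5. It was above background in 2 rats, CVX-060 rat 2 and vehicle rat 5, and the difference was -0.05. Mx2, a related GTPase, had 2 probe sets that disagreed. The probe set of higher variance, used here, read 5.04, 3.20, 3.62, 5.53 and 3.36 in CVX-060 rats 1 to 5, against 3.50, 6.49, 3.34, 4.95 and 3.34 in vehicle rats 1 to 5 and was above background in vehicle rat 2 alone. The other probe set read 6.65, 7.50, 6.78, 6.51 and 6.86 in CVX-060 rats 1 to 5, against 6.47, 6.29, 6.53, 6.74 and 8.29 in vehicle rats 1 to 5, was above background in all rats, and was highest in vehicle rat 5 and then CVX-060 rat 2. The correlation with Mx1 over the 10 rats was -0.30 for the probe set used and 0.95 for the other one, and the differences between groups were -0.18 and -0.00.

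Ifit2, of the tetratricopeptide family that binds viral RNA and blocks its translation, had log2 signals of 8.58, 8.72, 7.68, 7.44 and 8.0 in CVX-060 rats 1 to 5, against 8.05, 9.33, 7.71, 7.86 and 7.49 in vehicle rats 1 to 5. Vehicle rat 2 was highest and vehicle rat 5 among the lowest 2, and a second probe set of Ifit2 followed the first (r = 0.99 over the 10 rats). Ifit1, of the same family, read 5.81, 5.63, 5.90, 5.72 and 6.06 in CVX-060 rats 1 to 5, against 6.04, 5.84, 5.67, 5.76 and 6.35 in vehicle rats 1 to 5. It was above background in 3 rats and highest in vehicle rat 5, with a difference of -0.11. Ifit3 was above background in 3 rats and highest in CVX-060 rat 2 (7.02), with vehicle rat 5 second (6.67). Of the remaining effectors, Bst2, which tethers budding virus particles, ranged from 11.21 to 12.10, highest in CVX-060 rat 2. Rsad2, which makes a chain-terminating nucleotide, ranged from 6.53 to 8.02, with CVX-060 rat 5 (8.02) and vehicle rat 5 (7.90) highest. Eif2ak2, the RNA-activated kinase that halts translation, ranged only from 6.88 to 7.40 and was highest in vehicle rat 5. Oasl, Oas1b and Isg20 had differences of -0.03, -0.03 and 0.10.

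In the ubiquitin-like system, Isg15 and the protease that removes it, Usp18, which also restrains the type I receptor, were both highest in vehicle rat 5 and second in CVX-060 rat 2. Usp18 had log2 signals of 6.88, 8.41, 7.96, 8.03 and 7.64 in CVX-060 rats 1 to 5, against 7.11, 6.77, 7.41, 7.81 and 9.68 in vehicle rats 1 to 5. Vehicle rat 5 was highest and vehicle rat 2 lowest, a 7.51-fold range, with a difference of 0.03 (SE 0.50, 95% interval -1.08 to 1.14). Isg15 read 7.38, 8.32, 7.48, 7.96 and 7.68 in CVX-060 rats 1 to 5, against 7.31, 7.36, 7.41, 7.89 and 8.82 in vehicle rats 1 to 5. CVX-060 rat 2 and vehicle rat 5 were highest. The correlation of Isg15 with Usp18 was 0.94 over the 10 rats and 0.77 over the 8 rats without CVX-060 rat 2 and vehicle rat 5. Trim25, a ubiquitin ligase that activates the RNA sensor Rig1, did not follow them, at 10.06, 8.77, 9.03, 8.96 and 9.10 in CVX-060 rats 1 to 5, against 9.14, 9.01, 9.02, 8.31 and 8.79 in vehicle rats 1 to 5. CVX-060 rat 1 was highest and vehicle rat 4 lowest, and the difference of 0.33 (SE 0.24, 95% interval -0.20 to 0.86) had the smallest unadjusted limma p of the 38 genes, 0.198, and an exact permutation p of 0.357. It was 0.11 without CVX-060 rat 1 and 0.19 without vehicle rat 4.

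Among the other antiviral genes, Parp9, of the ADP-ribosyltransferase family, read 8.59, 9.14, 9.33, 8.90 and 8.80 in CVX-060 rats 1 to 5, against 9.35, 8.34, 9.12, 9.49 and 9.46 in vehicle rats 1 to 5. The groups overlapped, with vehicle rat 4 highest and vehicle rat 2 lowest, and the difference of -0.20 had an unadjusted limma p of 0.388. Its relative Parp14 differed by -0.11. Ifi27, an interferon-induced membrane protein gene, lay within 12.88 to 13.42. Ifi44 lay within 6.77 to 7.02 in 9 rats and at 7.62 in vehicle rat 5, and Ifi35 was also highest in that rat (8.96).

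Irf1 had the second largest spread of the 38 genes. Irf1 is the transcription factor first identified as a regulator of interferon genes, and it is induced by interferon-gamma and also by tumour necrosis factor. Its log2 signals were 8.70, 11.05, 9.04, 7.61 and 7.65 in CVX-060 rats 1 to 5, against 11.32, 9.07, 9.14, 8.16 and 7.35 in vehicle rats 1 to 5. CVX-060 rat 2 and vehicle rat 1 lay above every other rat, the next being vehicle rat 3, and vehicle rat 5 was the lowest of all. The range of 3.96 on the log2 scale is 15.6-fold, and the SD of 1.37 over the 10 rats lay at the 99.7th percentile of all genes. The means were 8.81 ± 1.40 in CVX-060 rats and 9.01 ± 1.48 in vehicle rats (SD, n = 5 each), so that the spread within each group was far above the difference of -0.20 (SE 0.80, 95% interval -1.97 to 1.57), with an exact permutation p of 0.77. The difference was -0.76 without CVX-060 rat 2, 0.38 without vehicle rat 1 and 0.11 without both rats that stood apart on the first component, so that its direction rested on single rats.

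**Figure D4:**
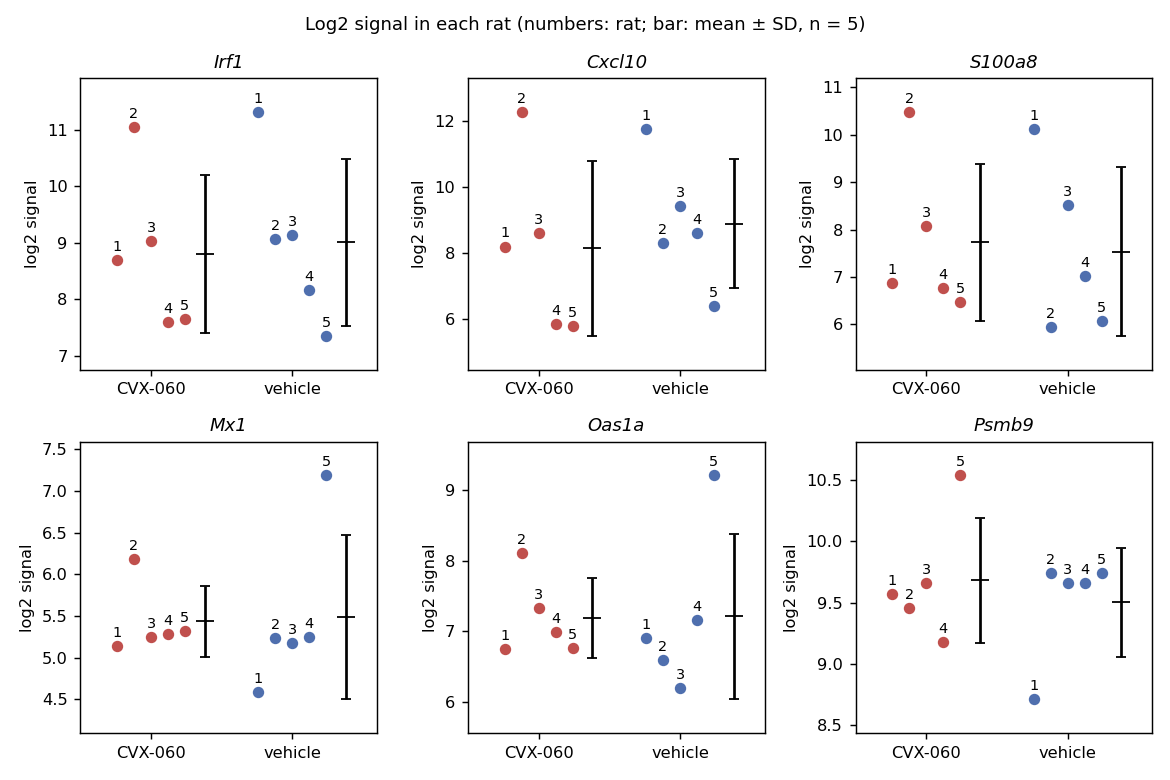
Log2 signal of Irf1, Cxcl10, S100a8, Mx1, Oas1a and Psmb9 in each rat, CVX-060 left of vehicle. Numbers are rats and bars mean ± SD (n = 5), and each panel has its own scale. CVX-060 rat 2 and vehicle rat 1 are high for Irf1, Cxcl10 and S100a8, vehicle rat 5 is high for Mx1 and Oas1a, and CVX-060 rat 5 is high and vehicle rat 1 low for Psmb9.

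The chemokines Cxcl9, Cxcl10 and Cxcl11, which attract activated T cells and natural killer cells through the shared receptor Cxcr3 and lie together on chromosome 14, followed Irf1. Cxcl10 had log2 signals of 8.19, 12.27, 8.60, 5.83 and 5.76 in CVX-060 rats 1 to 5, against 11.75, 8.28, 9.42, 8.59 and 6.38 in vehicle rats 1 to 5. Its range was 6.51, or 91.4-fold, with CVX-060 rat 2 and vehicle rat 1 highest and CVX-060 rats 4 and 5 lowest. The difference of -0.75 (SE 1.29, 95% interval -3.61 to 2.10) had an exact permutation p of 0.563. Cxcl11 read 10.57, 12.12, 9.90, 10.18 and 9.68 in CVX-060 rats 1 to 5, against 11.97, 10.23, 10.66, 10.26 and 10.19 in vehicle rats 1 to 5. The same 2 rats were highest, the other 8 lay within 9.68 to 10.66, and the difference was -0.17. Cxcl9 read 7.87, 9.44, 7.33, 7.62 and 7.59 in CVX-060 rats 1 to 5, against 9.07, 8.80, 8.55, 7.26 and 7.36 in vehicle rats 1 to 5. CVX-060 rat 2 and vehicle rat 1 led again, vehicle rats 2 and 3 came next, and the difference was -0.24.

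Gbp2, a guanylate-binding protein that attacks the vacuoles of intracellular pathogens, read 6.72, 8.41, 7.28, 5.83 and 7.57 in CVX-060 rats 1 to 5, against 8.19, 7.15, 7.35, 6.81 and 6.50 in vehicle rats 1 to 5. CVX-060 rat 2 and vehicle rat 1 were highest and CVX-060 rat 4 lowest, and the difference was -0.04. Igtp, an immunity-related GTPase, was highest in CVX-060 rat 3 (8.80) and vehicle rat 5 (8.91), with a difference of -0.14. Irf8, a factor of monocytes and dendritic cells, was highest in CVX-060 rat 5 (8.53) and lowest in vehicle rat 5 (7.69), with a difference of 0.04. Over the 10 rats, Irf1 correlated with Cxcl10 at 0.96, Cxcl11 at 0.89, Cxcl9 at 0.85 and Gbp2 at 0.82, and over the 8 rats without CVX-060 rat 2 and vehicle rat 1 at 0.88, 0.41, 0.61 and 0.51. These values share the same arrays and are given as a description.

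Of the 5 antigen presentation genes, 4 were highest in CVX-060 rat 5. Tap1, Tap2, Psmb8 and Psmb9 are neighbours on chromosome 20, where the annotation places them within chr20:4638257-4674421. Psmb9, a subunit of the immunoproteasome that cuts peptides for presentation, read 9.57, 9.46, 9.66, 9.18 and 10.54 in CVX-060 rats 1 to 5, against 8.71, 9.74, 9.66, 9.66 and 9.74 in vehicle rats 1 to 5. CVX-060 rat 5 was highest, vehicle rat 1 lowest, and the other vehicle rats lay within 9.66 to 9.74. Tap2, a subunit of the transporter that carries those peptides into the endoplasmic reticulum, read 7.02, 7.08, 7.33, 7.30 and 8.08 in CVX-060 rats 1 to 5, against 6.33, 7.40, 7.29, 7.21 and 6.99 in vehicle rats 1 to 5. Again CVX-060 rat 5 was highest and vehicle rat 1 lowest, and the difference of 0.32 (SE 0.24, 95% interval -0.21 to 0.85) had an unadjusted limma p of 0.214 and an exact permutation p of 0.341. It was 0.14 without CVX-060 rat 5 and 0.14 without vehicle rat 1. Psmb8 and Tap1 were also highest in CVX-060 rat 5, at 10.85 and 8.30, while B2m, the light chain of MHC class I on chromosome 3, lay within 11.54 to 11.72 in 9 rats and at 11.16 in CVX-060 rat 4. CVX-060 rat 5 is also one of the rats apart on the first component, and without it the difference in Psmb9 was -0.04 rather than 0.18.

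Correlations between genes were set side by side within and between the classes. Pairs of antiviral genes had a median correlation of 0.35 over the 10 rats (325 pairs, 234 of them positive), pairs of gamma-type genes outside antigen presentation 0.67 (21 pairs), and pairs of antigen presentation genes 0.62 (10 pairs, 0.35 without CVX-060 rat 5 and vehicle rat 2). Between the classes the medians were -0.05 for antiviral with gamma-type genes outside antigen presentation, -0.00 for antiviral with antigen presentation genes, and -0.20 for the other gamma-type with antigen presentation genes. The antiviral and gamma-type scores correlated at -0.06 (Spearman rho of -0.39) and, without CVX-060 rat 2 and vehicle rat 5, at -0.55. The gap between antiviral and gamma-type genes changed with the rat left out. Without vehicle rat 5 alone, the median was 0.15 within antiviral genes. It was 0.19 for antiviral with gamma-type genes outside antigen presentation (125 of 182 pairs positive). The antiviral and gamma-type scores then correlated at 0.41 over the other 9 rats. Without CVX-060 rat 2 alone, the same medians were 0.32 and -0.14, and the scores correlated at -0.48. The antiviral and gamma-type medians within a class were lower without the high rats of that class. Without vehicle rat 5 and CVX-060 rat 2 the median antiviral pair stood at 0.01, and without vehicle rat 1 and CVX-060 rat 2 the median gamma-type pair stood at 0.30. Among antigen presentation genes, Psmb9 correlated with Psmb8 at 0.93, Tap2 at 0.88 and Tap1 at 0.69 over the 10 rats. Without CVX-060 rat 5 and vehicle rat 1, these values were 0.68, -0.02 and -0.04. All pairs share the same 10 livers and arrays, and no test was made of these correlations.

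The genes most like Irf1 and Mx1 over the 10 rats were then listed by Pearson correlation over all 14217 genes. Nearest to Irf1 were Tnf, the gene of tumour necrosis factor (0.96), the chemokine genes Ccl7 (0.96), Cxcl10 (0.96) and Ccl2 (0.96), and Tfpi2 (0.95), a protease inhibitor. Ccl2, which recruits monocytes, read 7.82, 11.54, 9.01, 5.50 and 6.40 in CVX-060 rats 1 to 5, against 11.46, 7.24, 9.11, 7.79 and 5.43 in vehicle rats 1 to 5. Its correlation with Irf1 over the 8 rats without CVX-060 rat 2 and vehicle rat 1 was 0.88. Tnf itself was above background in 2 rats, CVX-060 rat 2 (6.94) and vehicle rat 1 (7.85). Ccl7 and Tfpi2 were also each above background in only 2 rats. Of the other interferon genes, 3 were among the 100 genes nearest to Irf1. Nearest to Mx1 was Irf7 (0.96), and Ifi44 (0.92), Isg15 (0.92), Oas1a (0.90), Usp18 (0.89) and Ifi27 (0.88) were among the nearest 8, with 9 interferon genes among the nearest 100. Without vehicle rat 5 and CVX-060 rat 2, Mx1 correlated with Irf7 at 0.57, with Isg15 at 0.53 and with Oas1a at 0.02.

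Of 82 other genes of the interferon pathway, 62 were measured, and 0 had an adjusted p under 0.05, beside 0 of 14217 genes overall. Their mean was higher in CVX-060 rats for 37 and lower for 25 (median difference 0.03), while 52.6% of all genes were higher. Among the ligands, Ifng, Ifnb1, Ifnk, Il12a and Il12b were above background in 0 rats, while Il18, a cytokine that induces interferon-gamma, was above background in all 10 rats. Of the 9 receptor and kinase genes, Ifnar2, Ifngr1, Ifngr2, Il10rb, Jak1, Jak2 and Tyk2 were above background in all rats, with differences from -0.19 to 0.20. Ifnar1 had the only unadjusted limma p under 0.05 of the 62 genes (0.041, adjusted p of 1), while 2.44% of all genes had one. Its difference was 0.24, but its probe set was above background in 0 rats. Among the 7 restraints of the pathway, Cish, a feedback inhibitor of Stat5 signalling, followed Irf1 (r = 0.90 over 10 rats, 0.87 without CVX-060 rat 2 and vehicle rat 1). Its log2 signals were 8.47, 9.30, 8.24, 7.42 and 6.41 in CVX-060 rats 1 to 5, against 9.88, 8.30, 8.93, 8.29 and 6.84 in vehicle rats 1 to 5. Socs3 read 6.24, 6.28, 6.67, 6.36 and 6.85 in CVX-060 rats 1 to 5, against 7.67, 6.22, 7.64, 6.07 and 6.09 in vehicle rats 1 to 5, with vehicle rats 1 and 3 highest, and Socs1 was above background in 0 rats.

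Markers of other cells were set beside the scores. Neutrophil markers moved with the Irf1 and chemokine genes, and 3 of the 6 listed genes were measured. S100a8, a calcium-binding protein abundant in neutrophils, read 6.87, 10.48, 8.07, 6.76 and 6.48 in CVX-060 rats 1 to 5, against 10.13, 5.94, 8.51, 7.01 and 6.08 in vehicle rats 1 to 5. S100a9, its partner, read 6.97, 10.93, 8.52, 6.82 and 6.63 in CVX-060 rats 1 to 5, against 10.57, 6.02, 8.83, 7.47 and 6.30 in vehicle rats 1 to 5. The antimicrobial peptide gene Camp was above background in 0 rats, and Mpo, Elane and Ngp were not measured under the probe set rule. CVX-060 rat 2 and vehicle rat 1 were highest for both genes that were above background, and the neutrophil score ranged from -0.88 to 2.08 in CVX-060 rats and from -1.30 to 2.0 in vehicle rats. It correlated with the gamma-type score outside antigen presentation at 0.89 over the 10 rats and at 0.50 over the 8 rats without CVX-060 rat 2 and vehicle rat 1, and with the antiviral score at -0.05. Their part in the Irf1 and chemokine pattern was not tested.

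T cells and natural killer cells, the sources of interferon-gamma, had 18 of 19 markers measured, of which 2 were above background in all rats and 11 in none. Their score ranged from -0.09 to 0.14 in CVX-060 rats and from -0.13 to 0.00 in vehicle rats. It was highest in CVX-060 rat 2 and correlated with the gamma-type score outside antigen presentation at 0.51, and at 0.21 without CVX-060 rat 2 and vehicle rat 1. Of 8 dendritic cell markers listed, 5 were measured and 2 were above background in all rats. Their score was highest in CVX-060 rat 2 (0.63) and lowest in vehicle rat 5 (-0.62). It correlated with the gamma-type score outside antigen presentation at 0.64, and at 0.51 without CVX-060 rat 2 and vehicle rat 1. Cd83 correlated with Irf1 at 0.80 and Batf3 at 0.65, against 0.22 to 0.27 for Flt3, Clec9a and Itgax. The part of T, natural killer and dendritic cells in the gamma-type pattern was not tested. All 9 measured macrophage markers had a higher mean in CVX-060 rats (median difference 0.27), beside 52.6% of all genes. Of these markers, 0 had an adjusted p under 0.05 by limma. The macrophage score overlapped between groups, at -0.33 to 0.40 in CVX-060 rats and -0.32 to -0.01 in vehicle rats. It correlated with the antigen presentation score at 0.52 (0.15 without CVX-060 rat 5 and vehicle rat 1) and with the antiviral score at -0.03. The hepatocyte score and the stellate and fibroblast score each correlated with antigen presentation at 0.50 (-0.10 and -0.26 without those 2 rats). For the other cell types this correlation lay between -0.55 (neutrophils) and 0.25 (T and natural killer cells). CVX-060 rat 5 had the highest macrophage score (0.40) and the highest MHC class II score (1.20). The class II score ranged from -1.18 to 1.20 in CVX-060 rats and from -1.02 to 0.74 in vehicle rats. The -1.18 was that of CVX-060 rat 3, where RT1-Bb read 4.82, against 7.89 to 10.59 in the other rats. The other class II genes were all lowest in vehicle rat 5. The MHC class I genes had 3 of 5 measured, of which 1 was above background in all rats. Their score correlated with the antigen presentation score at 0.81 (0.58 without CVX-060 rat 5 and vehicle rat 1). It was lowest in vehicle rat 1 (-1.02), where RT1-CE5 read 4.68, its lowest signal. RT1-N3 was lowest in vehicle rat 3 (5.45) and RT1-S3 in vehicle rat 2 (9.30). The part of the macrophage and MHC genes in the antigen presentation pattern was not tested.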

How the data were processed

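Log2 signals per probe set, which the authors had normalized between arrays and deposited as a value table, were used as they stood. The study's methods state that 2 replicates per treatment were kept after quality control, without naming them, and all 10 arrays were used here. The tools listed in the submitters' processing notes are R 3.4.0, limma 3.38.2 and affy 1.56.0, and the background correction and summary method were not given in the sources used here. Scanner files and healthy livers were not used here. From 31099 probe sets, 57 controls, 9780 without a symbol and 436 with several symbols were dropped, leaving 20826 for 14217 genes, each represented by its most variable probe set.

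Groups were compared with limma 3.58.1 under R 4.3.3 (lmFit, eBayes) and Benjamini-Hochberg adjustment over all genes. That step was run on simulated data with normal noise set below the spread of these genes. It therefore does not show what could be detected in these rats. For single genes a two-sided exact permutation test enumerated the 252 splits of 10 rats, so that p cannot fall below 0.0079. Python 3.11.15 (matplotlib 3.10.9, scipy 1.17.1, pandas 2.3.3, numpy 2.4.6) served for tables and plots.

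Genes described in every rat were Irf1, the 6 antiviral and the 6 gamma-type genes of largest SD, and the 3 genes per direction of smallest p. Isg15, Ccl2, Cish, Socs3, S100a8, S100a9, Ly6e, Tnfsf10, Ctss and the second Mx2 probe set were added after their values were seen. The members and all lists were chosen with earlier results of these data known. The rats are biological replicates, and their number limits the precision. Alternative settings took the brightest probe set per gene, removed genes under the 40th percentile of mean signal, repeated quantile normalization, centred arrays on their medians, weighted arrays, used a trended robust prior, blocked on replicate number, or left out single rats or the pair of vehicle rat 2 and CVX-060 rat 5. Scores were also made in other ways.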

Additional observations from a re-analysis of the deposited data

Results flagged for a closer look

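In 82 groups of 5 rats (both groups for each of 38 genes and 3 scores), a rat lay farther from its group than Dixon's 95% critical ratio of 0.71 in 14 cases. For normally distributed values, chance marks about 1 in 20 such groups. The share of such groups over all genes was not computed, so the count is not read as particular to these genes. CVX-060 rat 2 was the high rat of its group in 5 of them, with Mx1 at 6.18 (the others at 5.14 to 5.32), Ifit3 at 7.02 (5.20 to 5.54), Cxcl9 at 9.44 (7.33 to 7.87), the score of all 38 genes at 0.43 (-0.22 to -0.08) and the antiviral score at 0.25 (-0.13 to -0.02). Vehicle rat 5 was the high rat in 4, with Irf7 at 9.74 (the others at 7.68 to 7.96), Mx1 at 7.19 (4.59 to 5.25), Ifi44 at 7.62 (6.77 to 6.90) and the antiviral score at 0.52 (-0.23 to -0.03).

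CVX-060 rat 5 was high for Tap1 at 8.30 (the others at 7.34 to 7.60), CVX-060 rat 1 high for Trim25 at 10.06 (8.77 to 9.10) and CVX-060 rat 4 low for B2m at 11.16 (11.61 to 11.72). Vehicle rat 1 was high for Cxcl11 at 11.97 (10.19 to 10.66) and low for Psmb9 at 8.71 (9.66 to 9.74). The groups share their arrays across genes, so that these cases are not independent of each other. No explanation of them was tested.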

How the results depend on the processing

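Under every alternative run, 0 genes in all and 0 of the 38 interferon genes had an adjusted p under 0.05, and the medians of antiviral and gamma-type genes moved by less than the spread between rats. The gamma-type median was 0.09 with array weights, and leaving out a rat gave -0.13 to 0.11 for it and -0.11 to 0.08 for the antiviral median, which was 0.08 without vehicle rat 5. The Irf1 difference of -0.20 turned to 0.33 with array weights and 0.11 without both rats apart on the first component, and lay between -0.76 and 0.38 when a rat was left out.

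Of 18 named differences, 9 turned sign under an alternative that kept all rats. With array weights the differences were 0.089 for Mx2, 0.011 for Oas1a, -0.18 for Usp18, 0.39 for Ifit2, 0.061 for Cxcl10, 0.14 for Cxcl11, 0.14 for Cxcl9 and 0.13 for Gbp2. Without both rats they were 0.56 for Mx2, -0.18 for Usp18, 0.33 for Ifit2 and 0.006 for Cxcl9. Leaving out a rat gave -0.52 to 0.36 for Mx2, -0.28 to 0.48 for Oas1a, -0.22 to 0.51 for Usp18, -0.28 to 0.37 for Mx1, -0.24 to 0.28 for Irf7, -0.16 to 0.31 for Ifit2, -0.58 to 0.15 for Cxcl11, -0.35 to 0.30 for Gbp2 and -0.037 to 0.30 for Psmb9. The other 8 named differences kept their sign when any rat was left out, among them Cxcl10 between -1.79 and -0.04, Cxcl9 between -0.61 and -0.02, Trim25 between 0.11 and 0.43, Tap2 between 0.14 and 0.41 and Irf9 between -0.31 and -0.07. None of these differences passed a threshold, and the cause was not tested.

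The labels give replicate numbers and do not state a pairing of rats. Deviations of same-numbered rats from their group means correlated at 0.10, -0.10, 0.15, 0.05 and -0.17 for numbers 1 to 5. Differently numbered rats were not compared in this way, so these values cannot settle whether rats were paired. With the replicate number as a block 0 genes were called, and the Irf1 difference stayed at -0.20. Signals under background, such as those of Mx1 in 8 rats, have little to rank.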

Other observations

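Among 27 other interferon-induced genes that were measured of 31 listed, 19 had a higher mean in CVX-060 rats and 8 a lower one. Of all genes, 52.6% had a higher mean. The median difference of the 27 genes was 0.06, with 0 adjusted p-values under 0.05 by limma. Their score was highest in CVX-060 rat 5 (0.32) and lowest in vehicle rat 1 (-0.25), and it correlated with the antigen presentation score at 0.86 over the 10 rats and at 0.40 over the 8 rats without CVX-060 rat 5 and vehicle rat 1. Ly6e, a lipid-anchored surface protein, correlated with Mx1 at 0.81 and read 7.35, 7.85, 7.30, 7.38 and 7.93 in CVX-060 rats 1 to 5, against 7.12, 7.72, 7.28, 7.76 and 8.24 in vehicle rats 1 to 5. Vehicle rat 5 was highest and vehicle rat 1 lowest.

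The smallest unadjusted limma p-values of these 27 genes belonged to Ctss and Tnfsf10, neither of them under 0.05. Ctss, the cathepsin that trims the invariant chain of MHC class II, read 10.74, 11.01, 10.70, 10.56 and 11.38 in CVX-060 rats 1 to 5, against 10.56, 10.83, 10.35, 10.23 and 10.66 in vehicle rats 1 to 5, with a difference of 0.35 and an unadjusted limma p of 0.0565 (adjusted p of 1). Tnfsf10, the death ligand TRAIL, read 6.80, 6.35, 6.88, 5.82 and 5.69 in CVX-060 rats 1 to 5, against 6.04, 6.13, 4.93, 5.99 and 5.41 in vehicle rats 1 to 5, with a difference of 0.61 and an unadjusted limma p of 0.0667 (adjusted p of 1). It was above background in 6 rats, and the groups overlapped for both genes.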
